A study of Mus musculus with 10 samples.

Results

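The genes described here encode Ly6/uPAR domain proteins of skin, small proteins folded into finger-like loops that disulphide bonds hold together. They are Slurp1, Ly6g6c, Lypd3, Lypd5, Ly6d and Ly6e, grouped as keratinocyte genes, and Ly6a and Ly6c1, grouped as stromal genes. They were picked by symbol from 23282 entries per library, with the difference between the genotypes already known from earlier results of the same data. All 8 were found, and 7 of them passed the filter on low values: Lypd5 did not. The difference between the genotypes is therefore given for these 8 genes as a description, without a test.

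Most Ly6/uPAR proteins are tethered to the outer cell surface by a glycosylphosphatidylinositol (GPI) anchor, while a few are secreted. SLURP1 is a secreted member that keratinocytes of the upper epidermis release and that acts on nicotinic acetylcholine receptors. In humans its loss causes mal de Meleda, a thickening of the skin of palms and soles. Among other cells, Ly6a (also called Sca-1) and Ly6c1 mark blood vessel lining, fibroblast and blood cell subsets in mice. Interferons raise Ly6a and Ly6e in many mouse cells.

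The samples were whole skin of C57BL/6 mice aged 5 months, in 2 genotype groups of 5 libraries each. STAT3cKO mice carried an ablation of STAT3, a transcription factor activated by cytokine receptors, in keratinocytes, and WT mice were wild type. The promoter that drove the deletion, the deleted exons, sex, litter and hair growth phase are not stated in the labels. Whether the libraries are from different mice is not stated either, so errors and p-values cover the spread among libraries, which may be technical. Libraries were made from the 3′ ends of transcripts (Lexogen QuantSeq), so a transcript gives reads in proportion to its number and not to its length.

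A value here is the deposited log2 of scaled reads per gene with a pseudocount of 1, so that a difference of 1 is a 2-fold difference. The worth of a single read was recovered from the steps between low values, which gave an estimated depth of 7190000 to 18400000 reads per library. In the 4 deeper libraries (STAT3cKO 4, STAT3cKO 5, WT 1 and WT 2) a gene without a read was listed at exactly 0, and in the other 6 at up to 0.08. STAT3cKO 2 and WT 3 had most tested genes without a read, 2617 and 1273 of 11536. STAT3cKO 2 was also the library with more than 1 read of Ddx3y of the Y chromosome (10.62) and had no read of Xist, which coats the inactive X chromosome. The sum of 16 hair shaft genes was 495000 scaled reads in STAT3cKO 3 and 528000 in WT 4, against 1.42 to 50300 in the other STAT3cKO libraries and 188 to 3800 in the other WT libraries. Stat3 itself had 9.49 to 10.81 in STAT3cKO and 9.08 to 10.29 in WT skin (change 0.41, SE 0.36, limma adjusted p = 0.7), but 3′ reads can come from a transcript without the deleted exons and from the dermis, where STAT3 was not ablated, so its level is no check of the labels. The 3′ end of Stat3 also overlaps an exon of Stat5a on the other strand by 72 bases (GENCODE release M21), and whether counting used the strand is not stated.

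Slurp1 had the largest difference of the 7 tested genes. It had values of 11.53, 9.91, 10.10, 9.19 and 9.88 in STAT3cKO 1 to 5, against 7.22, 3.92, 8.57, 6.23 and 7.68 in WT 1 to 5. Each STAT3cKO library lay above each WT library, and WT 2 was the lowest of all. In recovered reads these were 2421, 690, 1017, 789 and 1649 in STAT3cKO, against 223, 18, 280, 62 and 136 in WT skin. The means were 10.12 ± 0.86 in STAT3cKO and 6.72 ± 1.78 in WT (SD, n = 5 each), a difference of 3.40 (SE 0.74), or 10.6-fold on the scale of scaled reads plus 1.

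**Figure D1:**
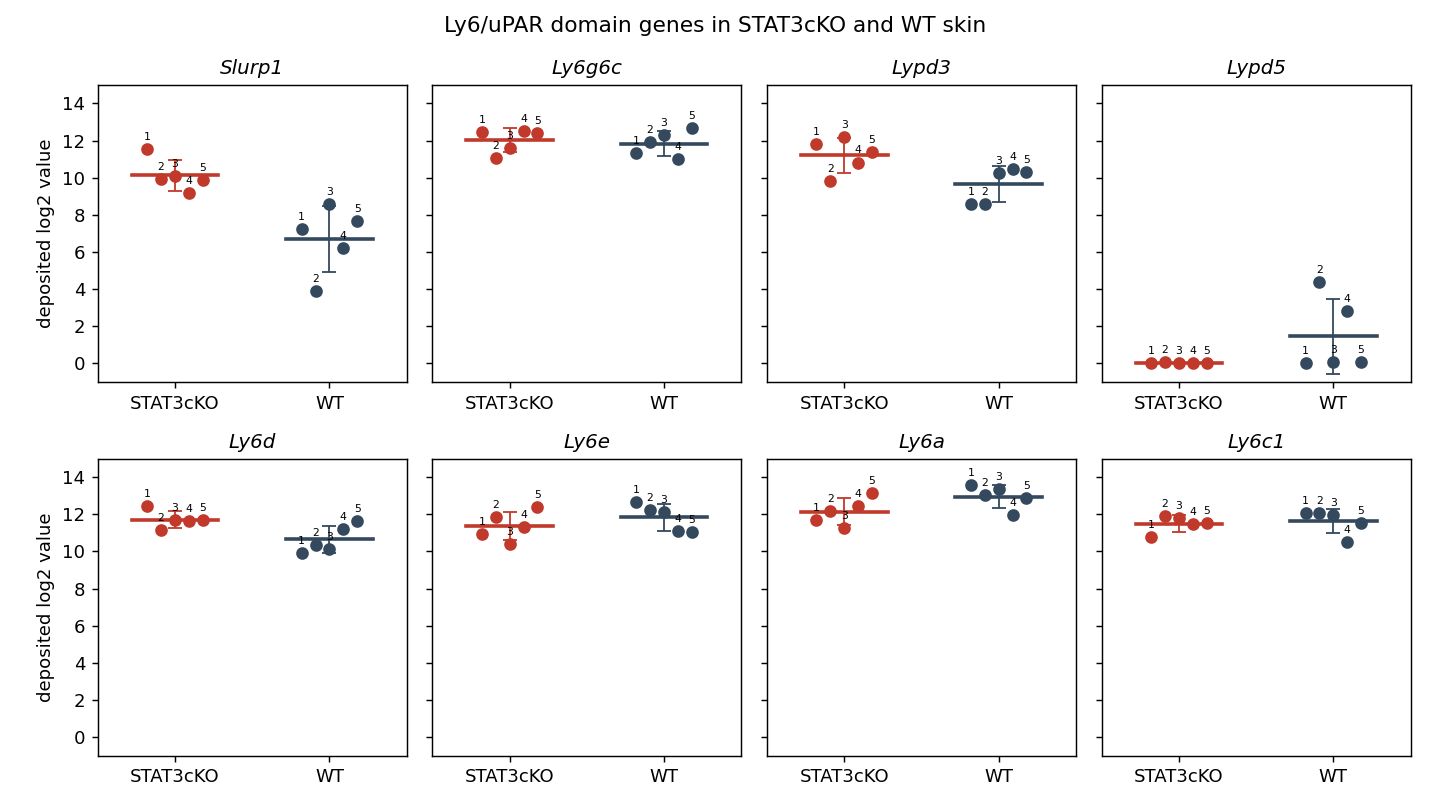
Deposited log2 value (vertical axis) of the 8 genes in the 5 STAT3cKO and 5 WT libraries. Points are libraries labelled with their replicate number, horizontal lines are group means and error bars are SDs. Slurp1 is the gene whose groups do not overlap, with 9.19 to 11.53 in STAT3cKO and 3.92 to 8.57 in WT.

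In the limma fit over all genes, which called 114 of 11536 genes (0.988%) at a Benjamini-Hochberg adjusted p under 0.05, 1 of the 7 tested genes was called, and that was Slurp1. Slurp1 was likewise the only 1 of the 7 whose groups did not overlap, where 3.42% of all tested genes had such groups and 1.71% had all STAT3cKO libraries above all WT libraries. Since the genes were chosen with this contrast known, nothing is read from these counts. Of the 7 genes 4 had a higher and 3 a lower mean in STAT3cKO skin. Their median difference was 0.17, beside −0.16 for all 11536 genes.

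The size of the Slurp1 difference depended on the library left out: it ranged from 2.70 without WT 2 to 3.86 without WT 3. Among the 4 deeper libraries alone it was 3.97, and among the 6 shallower ones 3.02. Slurp1 was chosen with this contrast known, so its call is no test of the difference. The call was lost without STAT3cKO 1, 2, 3 or 5 or WT 1, each left out in turn, and without STAT3cKO 3 and WT 4 together. It was also lost with limma-voom, no filter on low values, quantile normalization or plain empirical Bayes, and among the deeper or the shallower libraries alone. It held in 10 of 22 alternatives. The difference was 3.45 without STAT3cKO 2, and 3.28 without STAT3cKO 3 and WT 4.

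Slurp1 (chromosome 15, 74724318 to 74728034 on the minus strand of mm10, GENCODE release M21) has a neighbour that runs toward it. The 3′ end of its GENCODE model overlaps an exon of Them6 on the other strand by 322 bases (74724318 to 74724639), while the RefSeq models of the 2 genes end apart, Slurp1 at 74726644 and Them6 at 74724373. Whether counting used the strand is not stated, so reads in the overlap cannot be assigned. Them6, named after its values were seen, had 8.21, 7.23, 8.70, 7.39 and 7.48 in STAT3cKO 1 to 5, against 0, 7.59, 7.38, 6.85 and 6.37 in WT 1 to 5. In recovered reads Them6 had 107 to 386 per STAT3cKO library, fewer than Slurp1 in each of the 5. In WT 2 and WT 4 it had more reads than Slurp1 (243 against 18, and 97 against 62), and in the other 3 WT libraries fewer.

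Markers of the upper epidermis were measured in the same libraries. The summed level of 18 suprabasal keratinocyte genes was 202000 to 398000 scaled reads in STAT3cKO and 67300 to 208000 in WT libraries. All 18 had a positive change, with a median of 1.33, and 1 of them passed the test by limma (8 by limma-voom, 11 at an unadjusted p under 0.05). Of all tested genes 1.37% passed by limma-voom, and 10.9% had an unadjusted p under 0.05. The gene that passed by limma was Hrnr, the filaggrin-like hornerin, which was higher by 3.40 (SE 0.37, limma adjusted p = 0.000122). Of all tested genes 0.529% were called higher by limma. The groups overlapped in the summed level, as WT 5 lay above STAT3cKO 2. Of 10 basal keratinocyte genes, led by the keratin Krt14 (change 1.30, SE 0.45, limma adjusted p = 0.25), 9 had a positive change, 0 passed by limma or by limma-voom (3 at an unadjusted p under 0.05) and the median was 0.33. The part of these markers in the Slurp1 difference was not tested. In whole skin, more cells of a type and more RNA per cell cannot be told apart.

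**Figure D2:**
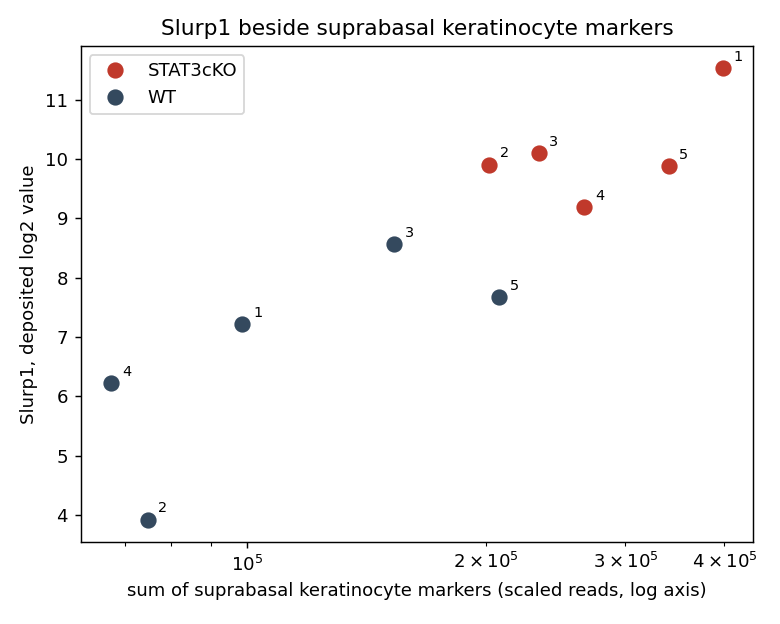
Slurp1 (deposited log2 value, vertical axis) against the summed scaled reads of 18 suprabasal keratinocyte markers (log axis) in each library, labelled with its replicate number. The 5 STAT3cKO libraries lie at 9.19 or more for Slurp1, and the WT libraries at 8.57 or less.

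Lypd3 (chromosome 7, 24636550 to 24641118, plus strand) encodes a GPI-anchored relative of the urokinase receptor found in suprabasal keratinocytes. Its values were 11.81, 9.80, 12.19, 10.82 and 11.39 in STAT3cKO 1 to 5, against 8.61, 8.59, 10.24, 10.48 and 10.32 in WT 1 to 5. The groups overlapped: 4 STAT3cKO libraries lay above all WT libraries, and STAT3cKO 2 lay below 3 of them. The mean was 11.20 ± 0.93 in STAT3cKO and 9.65 ± 0.96 in WT (SD, n = 5 each), a difference of 1.56 (SE 0.49). It was 2.50 among the 4 deeper and 0.93 among the 6 shallower libraries, and 1.91 without STAT3cKO 2.

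Ly6d (chromosome 15, 74762056 to 74763620, minus strand), a GPI-anchored surface protein of stratified epithelia that early B cells also carry, had a higher mean too in STAT3cKO skin. It had 12.46, 11.15, 11.69, 11.62 and 11.67 in STAT3cKO 1 to 5, against 9.94, 10.34, 10.13, 11.22 and 11.63 in WT 1 to 5. Of the STAT3cKO libraries 3 lay above all WT libraries, and WT 5 reached the STAT3cKO level. The means were 11.72 ± 0.47 in STAT3cKO and 10.65 ± 0.73 in WT (SD, n = 5 each), a difference of 1.06 (SE 0.36), or 1.21 without STAT3cKO 2.

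Ly6g6c lies in the major histocompatibility complex (chromosome 17, 35065388 to 35070050, plus strand) and encodes a GPI-anchored family member. It had 12.47, 11.07, 11.61, 12.50 and 12.43 in STAT3cKO 1 to 5, against 11.31, 11.91, 12.29, 11.01 and 12.69 in WT 1 to 5. The highest library was WT 5 and the lowest WT 4, so that WT skin spanned the whole range of STAT3cKO skin. The difference of 0.17 (SE 0.36) was within the spread between libraries. It was 0.86 among the 4 deeper and −0.28 among the 6 shallower libraries, so its direction differed between them, and −0.03 without WT 4.

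Lypd5 (chromosome 7, 24349196 to 24355109, plus strand) encodes another surface protein of the family. It had no read in any STAT3cKO library, against 25 reads in WT 2, 5 in WT 4 and none in the other 3 WT libraries. Its values of 4.39 and 2.80 in WT 2 and WT 4 fell below the filter of 5, and 0 reads allow a level of up to 3 reads in each library by counting error alone. No fold was computed.

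The promoters of Lypd3 and Ly6g6c are shown because, of the tested keratinocyte genes with an entry in the RefSeq promoter table, Lypd3 had the larger difference and Ly6g6c one near 0 (the table's build is GRCm38.p6, the same assembly as mm10). Each is a window of 300 bases around the start, 5′ to 3′ on the gene's strand, chr7:24636320-24636619 for Lypd3 and chr17:35067075-35067374 for Ly6g6c. Capitals mark a TATAAA match.
Lypd3: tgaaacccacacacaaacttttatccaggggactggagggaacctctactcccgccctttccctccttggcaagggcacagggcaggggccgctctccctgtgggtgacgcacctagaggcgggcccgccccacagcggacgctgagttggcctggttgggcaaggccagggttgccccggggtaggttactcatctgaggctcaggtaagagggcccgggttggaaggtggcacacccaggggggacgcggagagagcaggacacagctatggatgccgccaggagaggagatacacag
Ly6g6c: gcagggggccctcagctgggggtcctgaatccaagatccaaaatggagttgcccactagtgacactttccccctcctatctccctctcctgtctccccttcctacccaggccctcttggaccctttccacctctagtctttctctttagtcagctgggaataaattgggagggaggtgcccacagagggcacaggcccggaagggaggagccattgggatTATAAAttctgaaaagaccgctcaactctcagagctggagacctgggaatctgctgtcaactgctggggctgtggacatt
Both strands were searched for the STAT motif TTCNNNGAA, the AP-1 site TGANTCA and the TATA box TATAAA. None of the promoters of Lypd3, Ly6g6c, Lypd5 and Ly6c1 held the STAT or the AP-1 letters, which 8.3% and 7.8% of all 32851 promoters in the table hold. TATAAA stood in the Ly6g6c promoter at −30 from the start, and in 13.6% of all promoters. The promoters of Slurp1, Ly6d, Ly6e and Ly6a were not used here.

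Ly6e, Ly6a and Ly6c1 were lower on average in STAT3cKO skin, by amounts near or within the spread between libraries. Ly6e (chromosome 15, 74955051 to 74959905, plus strand) is a GPI-anchored protein that interferon raises and that limits the entry of several viruses. It had 10.95, 11.87, 10.41, 11.34 and 12.37 in STAT3cKO 1 to 5, against 12.69, 12.22, 12.15, 11.08 and 11.05 in WT 1 to 5. STAT3cKO 1 and STAT3cKO 3 lay below all WT libraries and the others overlapped. The means were 11.39 ± 0.77 in STAT3cKO and 11.84 ± 0.73 in WT (SD, n = 5 each), a difference of −0.45 (SE 0.39).

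Ly6a (chromosome 15, 74994877 to 74998031, minus strand), the stem and progenitor cell antigen Sca-1, had 11.68, 12.19, 11.24, 12.46 and 13.13 in STAT3cKO 1 to 5, against 13.56, 13.06, 13.38, 11.94 and 12.86 in WT 1 to 5. STAT3cKO 1 and STAT3cKO 3 lay below all WT libraries, while the others overlapped. The means were 12.14 ± 0.72 in STAT3cKO and 12.96 ± 0.63 in WT (SD, n = 5 each), a difference of −0.82 (SE 0.36). Ly6c1 (chromosome 15, 75044018 to 75048830, minus strand), an antigen of blood vessel lining and blood cells, had 10.79, 11.92, 11.80, 11.48 and 11.54 in STAT3cKO 1 to 5, against 12.06, 12.08, 11.98, 10.53 and 11.53 in WT 1 to 5. Its groups overlapped fully, with a difference of −0.13 (SE 0.33). Its sign was not stable: the difference was −0.56 among the 4 deeper and 0.16 among the 6 shallower libraries, and 0.05 without STAT3cKO 1.

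The stromal pair has close copies in the genome. Of the 50-base stretches in the last 500 bases of the Ly6c1 transcripts, 29.2% also occur in a transcript of another gene, 22.7% in Ly6c2. For Ly6a the share was 8.1%, and for the other 6 genes it was 0. How reads matching several genes were counted is not stated, so the split between Ly6c1 and Ly6c2 is uncertain. Ly6c2, an antigen of inflammatory monocytes, had 5.96 to 9.35 in STAT3cKO and 7.48 to 8.52 in WT skin, with a difference of −0.13 (limma adjusted p = 0.963).

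The Ly6c1 promoter is shown as the one of the stromal pair with an entry (chr15:75048788-75049087, minus strand, the outer of 2 listed starts), with TATAAA in capitals.
Ly6c1: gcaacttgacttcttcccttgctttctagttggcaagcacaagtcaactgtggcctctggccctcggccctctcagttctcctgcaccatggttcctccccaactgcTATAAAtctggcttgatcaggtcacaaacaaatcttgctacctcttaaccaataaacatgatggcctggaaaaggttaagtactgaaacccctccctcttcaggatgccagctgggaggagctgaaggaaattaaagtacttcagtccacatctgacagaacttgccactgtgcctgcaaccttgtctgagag
Its TATAAA match lies at −143 from the listed start.

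Markers of stromal and blood cell types were measured beside Ly6a and Ly6c1. The sum of 14 endothelial genes was 4870 to 9750 scaled reads in STAT3cKO and 2210 to 6010 in WT skin. Of 13 tested endothelial genes 0 passed by limma or limma-voom (1 at an unadjusted p under 0.05), with a median of 0.40, and Plvap, of the diaphragms of small vessels, had the lowest p (change 1.23, SE 0.40, limma adjusted p = 0.184). Of 13 fibroblast genes 5 had a positive change, and the median was −0.63. By limma 1 of them passed (1 by limma-voom, 3 at an unadjusted p under 0.05). That was Dpt, the matrix protein dermatopontin, which was lower by 1.53 (SE 0.33, limma adjusted p = 0.0287). Of all tested genes 0.459% were called lower by limma, 1.37% passed by limma-voom and 10.9% had an unadjusted p under 0.05. The Dpt call was lost without STAT3cKO 1, 3 or 5 or WT 1, 2, 3 or 5, each left out in turn, with adjusted p values up to 0.103. It was also lost with plain empirical Bayes, with a replicate block and without STAT3cKO 2 and WT 3 together. Among the deeper or the shallower libraries alone it was lost too, with a limma adjusted p of 0.315 in the shallower. The fibroblast sum was 37400 to 175000 in STAT3cKO and 95400 to 132000 in WT skin. Of 12 macrophage genes 0 passed by limma or limma-voom (2 at an unadjusted p under 0.05), and 1 had a positive change. The lysozyme gene Lyz2 had the lowest p (change −2.0, SE 0.55, limma adjusted p = 0.1). The macrophage sum was 4050 to 20400 in STAT3cKO and 9830 to 24500 in WT libraries. The part of these cell types in the levels of Ly6a, Ly6c1 and Ly6e was not tested.

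**Figure D3:**
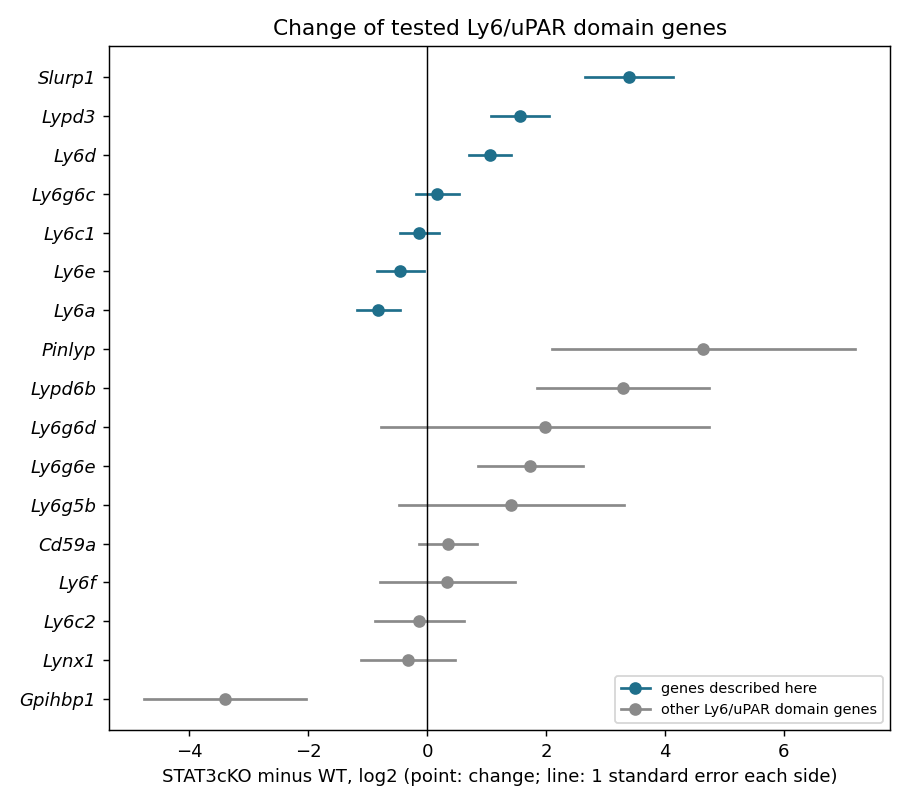
STAT3cKO minus WT (log2, horizontal axis) for the 7 tested genes described here and for 10 tested genes of the same family. Points are the differences from the fit and lines reach 1 standard error to each side. Slurp1 lies at 3.40 and Ly6a at −0.82.

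The contrast between the keratinocyte and the stromal genes was taken within each library, as the mean of the 5 tested keratinocyte genes minus the mean of Ly6a and Ly6c1. It was 0.61, −1.30, −0.32, −0.88 and −0.78 in STAT3cKO 1 to 5, against −2.85, −3.17, −2.0, −1.23 and −1.52 in WT 1 to 5. The groups overlapped only in that STAT3cKO 2 lay just below WT 4. The means were −0.53 ± 0.73 in STAT3cKO and −2.16 ± 0.84 in WT (SD, n = 5 each), 1.62 apart. Without Slurp1 they were 1.06 apart, with −1.08 to 0.69 in STAT3cKO and −2.17 to −0.29 in WT libraries. Ly6e, counted with the keratinocyte genes, had a lower mean in STAT3cKO skin (difference −0.45), as the stromal pair did. The grouping was set together with the choice of the genes, with earlier results of these data known. Which cells of whole skin made each transcript was not measured.

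The genes also varied among the libraries of a genotype, which the choice of the genes did not use. For the 21 pairs of the 7 genes, the deviations of the 10 libraries from their group means were correlated, with exact 2-sided permutation tests over the 14400 reorderings within groups. Ly6e, grouped here as a keratinocyte gene, and Ly6a, grouped as a stromal one, were the pair that passed the adjustment over 21 pairs. Their Pearson's r was 0.88 (exact permutation p = 0.00181, adjusted 0.038) and Spearman's rho 0.83 (exact permutation p = 0.0091, adjusted 0.094). Without STAT3cKO 3 and WT 5, the 2 libraries whose Ly6e deviations lay farthest from the median deviation, r was 0.91. It was 0.86 with the deviations taken within deeper and shallower libraries apart, and 0.81 without STAT3cKO 3 and WT 4. Both genes were high in STAT3cKO 5 and WT 1 for their groups and low in STAT3cKO 3 and WT 4.

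Ly6d ran opposite to Ly6c1 and Ly6e, but neither pair passed the adjustment. With Ly6c1 its r was −0.77 (exact permutation p = 0.0131, adjusted 0.138) and its rho −0.83 (exact permutation p = 0.0131, adjusted 0.094), with r at −0.88 without the 2 farthest libraries. With Ly6e its r was −0.73 (exact permutation p = 0.0292, adjusted 0.204). Lypd3 also ran opposite to Ly6e, with r −0.70 (exact permutation p = 0.0476, adjusted 0.215) and rho −0.81 (exact permutation p = 0.0151, adjusted 0.094). Its rho with Ly6c1 was −0.70 (exact permutation p = 0.0363, adjusted 0.127). Lypd3 and Ly6d ran in the same direction, with r 0.67 (exact permutation p = 0.0513, adjusted 0.215) and rho 0.77 (exact permutation p = 0.0179, adjusted 0.094). None of these pairs of Lypd3 passed the adjustment. Slurp1 had r values between −0.17 and 0.49 with the other 6 genes, none with an exact permutation p below 0.179. With the deviations taken within deeper and shallower libraries apart, its r lay between −0.14 (Ly6d) and 0.61 (Ly6a). These latter values were not tested. All values of a library share its scaling.

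**Figure D4:**
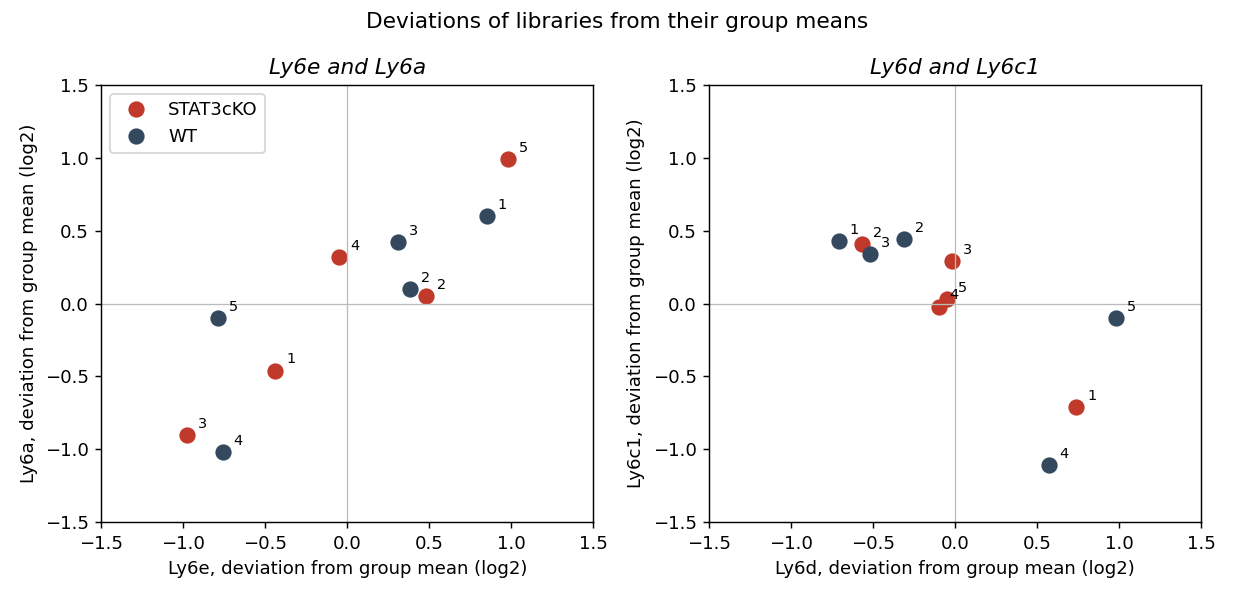
Deviation of each library from the mean of its group (log2), for Ly6e against Ly6a and for Ly6d against Ly6c1. Points are the 10 libraries with their replicate numbers. Ly6e and Ly6a lie along a rising line (r = 0.88), Ly6d and Ly6c1 along a falling one (r = −0.77).

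Among 7165 tested genes with a read in every library, those whose deviations from the group means were most like Slurp1's over the 10 libraries were Lamb3 (r = 0.92), a chain of an anchoring laminin of the epidermis, Ago1 (0.91), Ccne2 (0.87), Sec14l4 (0.87) and Fau (0.87). Those most like Ly6a were Ifitm3 (r = 0.97), an interferon-induced membrane protein, Lilrb4a (0.95), an inhibitory receptor of myeloid cells, Epsti1 (0.95), Npc2 (0.95), a lysosomal cholesterol carrier, and Plin2 (0.95), a lipid droplet coat protein. These values are the highest of many and are given without a test. In the fit none of these 10 genes was called.

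The interferon genes gave no called difference. Of 19 tested 0 passed by limma or limma-voom, none of them at an unadjusted p under 0.05, and 7 had a positive change. Their sum was 7380 to 17600 scaled reads in STAT3cKO and 5560 to 30500 in WT libraries, with WT 1 and WT 3 highest. Xaf1, with the lowest p, differed by −3.40 (SE 1.62, limma adjusted p = 0.458).

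Of the other Ly6/uPAR domain genes of mouse, 30 of 41 listed had an entry, 9 of these had no read in any library, and 10 were tested. By limma 0 of the 10 passed, and 0 by limma-voom, with 2 at an unadjusted p under 0.05, beside 10.9% of all tested genes. Those 2 were Gpihbp1 and Lypd6b. The median change of the 10 was 0.88, with 7 positive. Of the 10 genes 4 had at least 1 library without a read.

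Gpihbp1 (chromosome 15, 75596628 to 75599481, plus strand) encodes the protein that carries lipoprotein lipase across the lining of capillaries. It had 1.80, 6.88, 2.42, 5.99 and 6.82 in STAT3cKO 1 to 5, against 8.83, 8.15, 7.46, 7.82 and 8.66 in WT 1 to 5. All STAT3cKO libraries lay below all WT libraries, as in 1.72% of tested genes, yet with few reads in STAT3cKO 1 and 3 (2 and 4) the change of −3.40 had an SE of 1.36 (limma adjusted p = 0.352). The sum of 14 adipocyte genes was 53000 to 281000 in STAT3cKO and 139000 to 743000 in WT libraries. Of these genes 1, Car3, was called lower (by 3.06, SE 0.56, limma adjusted p = 0.0209), where 0.459% of all tested genes were called lower by limma. The other 13 did not pass, and 0 of the 14 had a positive change. An unadjusted p under 0.05 was found for 13 of the 14, beside 10.9% of all tested genes. The Car3 call, of a carbonic anhydrase of fat and muscle, was lost without STAT3cKO 1 or 5 or WT 1, 2 or 3, with adjusted p values up to 0.0729. It was also lost with plain empirical Bayes and among the shallower libraries alone (limma adjusted p = 0.136 and 0.433). The part of fat tissue in the Gpihbp1 level was not tested.

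Lypd6b (chromosome 2, 49787688 to 49948849, plus strand) encodes a protein whose human form modulates nicotinic receptors in cell assays. It had 9.14, 8.29, 9.51, 8.54 and 8.71 in STAT3cKO 1 to 5, against 0, 4.52, 4.95, 9.21 and 8.98 in WT 1 to 5. WT 4 and WT 5 had the STAT3cKO level, and the other WT libraries had 28 reads or fewer. The change was 3.30 (SE 1.45, limma adjusted p = 0.415). Lynx1, the brain's membrane-bound modulator of these receptors and a neighbour of Slurp1, had 5.94 to 8.58 in STAT3cKO and 6.46 to 8.67 in WT skin, with a change of −0.32 (limma adjusted p = 0.904). Cd59a, the GPI-anchored inhibitor of the complement attack complex, had 9.84 to 10.53 in STAT3cKO and 8.65 to 11.40 in WT skin, with a change of 0.35 (limma adjusted p = 0.814).

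Ly6g6c has family members beside it on chromosome 17. Of these Ly6g6e had 9.22, 9.26, 8.94, 7.77 and 8.89 in STAT3cKO 1 to 5, against 4.02, 5.77, 9.08, 8.04 and 8.48 in WT 1 to 5, a change of 1.74 (SE 0.88, limma adjusted p = 0.501). Ly6g6d, whose exons overlap those of Ly6g6e on the other strand by 229 bases, had reads in some libraries of each genotype. It had 11.34 in STAT3cKO 3, 8.37 and 8.33 in STAT3cKO 1 and 5 and no read in STAT3cKO 2 and 4, against 12.04 in WT 4, 5.98 in WT 2 and no read in the other 3 WT libraries. Its change was 1.99 (SE 2.76, limma adjusted p = 0.813). Of the rest, the difference was 1.42 for Ly6g5b (limma adjusted p = 0.805) and 0.34 for Ly6f (limma adjusted p = 0.935).

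Pinlyp (chromosome 7, 24541658 to 24546118, minus strand), named as a phospholipase inhibitor with a Ly6 domain, also had its reads in some libraries of each genotype. It had 11.30, 9.83, 8.05 and 6.21 in STAT3cKO 3, 1, 5 and 4 and no read in STAT3cKO 2, against 12.06 in WT 4 and no read in the other 4 WT libraries. Its change was 4.65 (SE 2.55, limma adjusted p = 0.535). Krt35, a keratin of the hair shaft, had 11.82, 9.43 and 9.10 in STAT3cKO 3, 1 and 5 and no read in STAT3cKO 2 and 4, against 12.06 in WT 4, 6.96 in WT 5 and no read in the other 3 WT libraries. STAT3cKO 3 and WT 4, the libraries with the highest hair shaft sums, held the highest values of Ly6g6d and Pinlyp. Of the 8 tested hair shaft genes 0 passed by limma or limma-voom (0 at an unadjusted p under 0.05). A positive change was found for 7 of them, with a median of 2.21. The part of hair growth in the levels of Ly6g6d and Pinlyp was not tested.

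**Figure D5:**
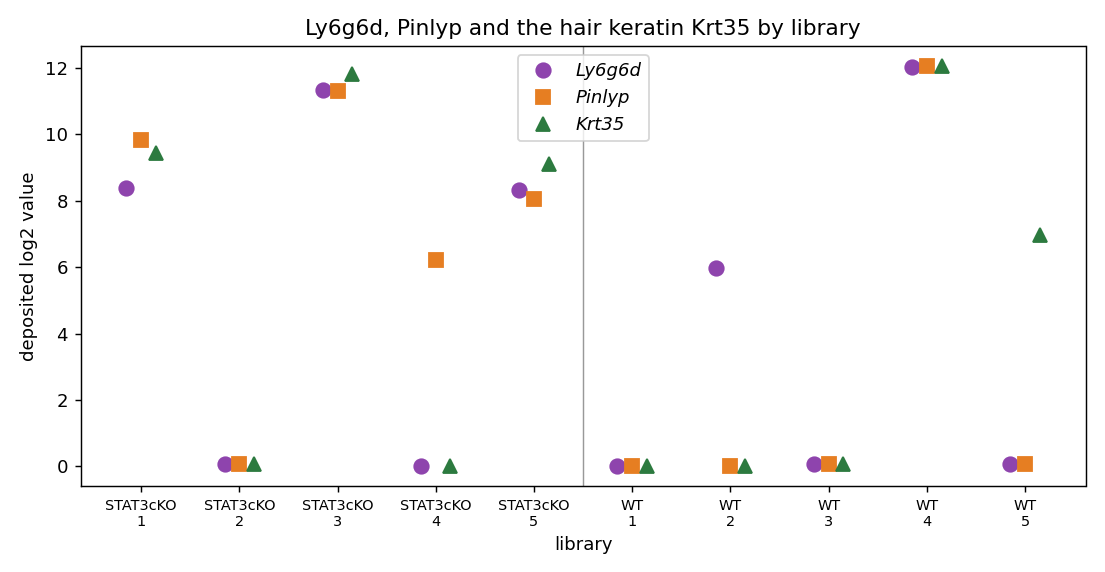
Deposited log2 value of Ly6g6d, Pinlyp and the hair keratin Krt35 in the 5 STAT3cKO and 5 WT libraries. STAT3cKO 3 and WT 4 hold the highest values of all 3 genes (11.30 to 11.82 and 12.04 to 12.06), and several libraries of both genotypes have none.

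Genes that act with the family were described from lists of cholinergic genes, GPI anchor synthesis and the urokinase system. Of 26 cholinergic genes 2 were tested and 0 passed by limma or limma-voom (0 at an unadjusted p under 0.05). Chrna7, Chrna3 and Chrna9, subunits of the receptors that SLURP1 is known to bind or modulate, had no read in any library. Bche, which breaks down acetylcholine and its relatives, had a difference of −0.50 (SE 0.53, limma adjusted p = 0.752).

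Of 24 tested GPI anchor genes 0 passed by limma or limma-voom (1 at an unadjusted p under 0.05), and the median was 0.05. That 1 was Dpm3, which tethers the enzyme that makes dolichol phosphate mannose. It had 8.80, 7.38, 8.96, 7.76 and 8.43 in STAT3cKO 1 to 5, against 9.59, 9.39, 9.79, 9.64 and 9.36 in WT 1 to 5. All STAT3cKO libraries lay below all WT libraries, as in 1.72% of tested genes, and the difference was −1.29 (SE 0.42, limma adjusted p = 0.193). Of 9 genes of the urokinase system 0 passed by limma or limma-voom (1 at an unadjusted p under 0.05), with a median of 0.78. Among all tested genes 10.9% had an unadjusted p under 0.05. Serpinb2, an inhibitor of urokinase, had a difference of 1.22 (SE 0.46, limma adjusted p = 0.311). The urokinase receptor gene Plaur, the namesake of the domain, had no read in 2 STAT3cKO and 3 WT libraries and was not tested.

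Other appendages of the epidermis held called genes. Of 7 upper follicle genes 1 was called higher, the keratin Krt79, by 2.67 (SE 0.35, limma adjusted p = 0.00046), and 6 did not pass. Among all tested genes 0.529% were called higher by limma. Limma-voom called 1 of the 7, 2 had an unadjusted p under 0.05, and 5 had a positive change, with a median of 0.79. Of 8 sebaceous gland genes 2 were called higher, the fatty acid elongase Elovl3 by 4.31 (SE 0.61, limma adjusted p = 0.00355) and the sterol esterifying enzyme Soat1 by 3.10 (SE 0.47, limma adjusted p = 0.00167). Limma-voom called 3 of the 8, 4 had an unadjusted p under 0.05, and 4 had a positive change, with a median of 0.02. Among all tested genes limma-voom called 1.37%, and 10.9% had an unadjusted p under 0.05. The sebaceous sums were 15100 to 29700 scaled reads in STAT3cKO and 8760 to 16300 in WT libraries. Of the 4 tested T and NK cell genes and the 10 skeletal muscle genes 0 passed by limma or limma-voom (2 and 3 at an unadjusted p under 0.05). A positive change was found for 0 of the 4 and 1 of the 10, with medians of −3.74 and −1.59. Lowest in p were Cd7, a T and NK cell antigen (change −4.51, SE 1.72, limma adjusted p = 0.314), and Actn3, an actinin of fast muscle fibres (change −4.30, SE 1.70, limma adjusted p = 0.365). Of 8 neutrophil genes 0 were tested. The part of follicles and glands in the levels of the keratinocyte genes was not tested.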

How the data were processed

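RNA from whole skin was sequenced with a 3′ kit in 5 STAT3cKO and 5 WT libraries, per the labels' protocols. Reads were processed with Bowtie2 and bedtools on mm10, per the submitters' processing notes; versions, annotation, strand use, scaling and the handling of duplicates or of reads matching several genes are not stated there. The authors deposited 1 value per gene symbol and library, which behaves as log2 of scaled reads plus a pseudocount of 1 (read from the values, as no header names the unit). With it, low genes' changes come out too small. Low values lay at whole multiples of a single read (89.7 to 100% within 0.15 of a read, up to 20 reads), from which depth was estimated. Depths cover counting error only, since no molecular identifiers are named.

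Genes reaching a value of 5 in 5 or more libraries were tested. limma 3.58.1 in R 4.3.3 was fitted to all 11536 such genes with group as the only term (mean trend, robust empirical Bayes), and a call needed an adjusted p (Benjamini-Hochberg) under 0.05. The script was tested on simulated data. Changes are STAT3cKO minus WT. The 8 genes and all lists were chosen with earlier results of these data known. Named were the 8 genes, each tested gene of the rest of the family, the called genes of each other list (at most 4, or the one with the lowest p), Stat3, and the 5 genes most like Slurp1 and most like Ly6a. Them6, Krt35, Plaur, Ddx3y, Xist and cholinergic receptor genes without a read were named after their values were seen. Alternatives were other filters, pseudocounts, scalings and tests, a replicate block, and subsets of libraries.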

Additional observations from a re-analysis of the deposited data

Results flagged for a closer look

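In 70 groups of 5 libraries examined (a gene in a genotype), 4 held a library whose gap to the nearest other was more than 0.71 of the group's range. Chance alone gives about 1 in 20 such groups. Ly6g5b was at 0.06, without a read, in STAT3cKO 2, while the other STAT3cKO libraries had 4.93 to 6.76. Ly6g6e was at 7.77 in STAT3cKO 4, below 8.89 to 9.26 in the others of its genotype. Pinlyp was at 12.06 in WT 4, the WT library with the highest hair shaft sum, while the other WT libraries had no read. Cd7, a T and NK cell antigen, was at 5.20 in WT 4, below 8.04 to 8.83 in the other WT libraries.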

How the results depend on the processing

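Across 22 alternatives each, the Slurp1 difference stayed between 2.70 and 4.36, and Slurp1 was called in 10 of them. The difference between keratinocyte and stromal genes stayed between 1.25 and 2.18. Ly6g6c and Ly6c1 each changed direction in 2 of the 22. Lypd3 was called in 1 of the 22, the deeper libraries alone, and the other 5 tested genes of the 8 in none. These genes were chosen with the contrast known, so their calls are no tests. Of the 10 further family genes tested, 0 were called in each alternative. The count of called genes moved most: 114 as reported, 181 with quantile normalization, 44 with plain empirical Bayes, 174 in the deeper and 16 in the shallower libraries, and 61 (without STAT3cKO 1) to 207 (without WT 4) with 1 library left out. It was also under the reported count by more than 1.5 times without STAT3cKO 5 (72), WT 1 (62) or WT 2 (62). The share of called genes that rose was 53.5% as reported, 67.7% with limma-voom, 29.5% with plain empirical Bayes and 75.0% in the shallower libraries. The median change of all genes was −0.16 as reported, −0.01 with quantile normalization and −0.03 with limma-voom. The cause was not tested. Of 588 alternative values of 27 list genes, 567 kept their call or lack of one and 21 lost a call (Dpt, Car3, Krt79 and Soat1). Leaving out STAT3cKO 3 and WT 4 together was chosen after seeing the data.

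Same-numbered libraries did not deviate together (r −0.15 to 0.02), and none was most like its own number. With the replicate number as a block, 66 genes were called.

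Depth limits genes such as Lypd5, with 25 reads or fewer per library.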
